A study of Mus musculus with 5 samples.

Results

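The genes followed here make, sense or break down prostaglandins. They are 10 of the 31053 genes counted and were taken by name: the cyclooxygenase genes Ptgs1 and Ptgs2, the terminal synthase genes Ptges, Ptges2, Ptges3, Ptgis and Ptgds, the receptor genes Ptgfr and Ptger2, and the breakdown gene Hpgd. All 10 were detected, with totals over all libraries from 328 unique molecular identifiers (UMIs, each marking 1 captured mRNA molecule) for Ptgfr to 149673 for Ptges3. Ovaries of untreated C57BL6/J mice were collected at 2, 3, 4, 5 and 6 wk, before and around puberty, and profiled with droplet-based 3′ single-cell RNA sequencing, 1 library per age. Ovaries had been dissociated with trypsin at 37 °C and live cells sorted with a dead-cell stain. No treatment, mutation or transgene distinguishes the libraries, and the sources used here do not say how many animals each one pooled.

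The libraries held 7779 to 11077 cells and 93438618 to 144609431 UMIs, with a median of 9056 to 12424 UMIs per cell. Any 2 libraries shared 18 to 35 cell barcodes. Cells were clustered without the 10 genes, so none of them helped to set a group. A first clustering gave granulosa-like (18327 cells), stromal-like (13110), smooth muscle-like (4878), theca-like (1258), pericyte-like (859), blood endothelial-like (718), hematopoietic-like (494), surface epithelial-like (322), lymphatic endothelial-like (223) and rete ovarii-like (90) cells, and left 7884 cells unnamed, whose median was 1777.5 UMIs. A second clustering split granulosa-like cells into primordial-, primary-, secondary-, antral- and remodeling-like groups and dividing cells, and mesenchymal cells into early and steroidogenic theca-like, smooth muscle-like, dividing and 5 fibroblast groups named by their genes. The secondary-like group was matched to the study's cluster profile (correlation 0.93 across genes), while its primary markers scored above its secondary markers. Clusters of 1430 and 852 cells, led by markers of dividing cells, also matched secondary clusters of the study (0.945 and 0.93). They were placed in the dividing group, so the secondary-like group leaves them out. Of the 148 remodeling-like cells at 2 wk, 138 came from 1 cluster, which also supplied 120 of the 171 at 3 wk and carried primordial markers at nearly the same score. The largest antral-like cluster, of 1898 cells, scored 0.540 for antral and 0.510 for remodeling markers. The hematopoietic-like cells joined a cluster of 368 cells led by Lyz2 and C1qa and another of 126 cells with Nkg7 and Cd3g. The latter supplied 22 of 51 cells at 2 wk and 27 of 179 at 5 wk, so the mixture differed between ages. The names below stand for these marker-based groups.

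Prostaglandins are lipid signals that act near the cell that makes them. Cyclooxygenases turn arachidonic acid into prostaglandin H2, terminal synthases turn that into prostaglandin E2, prostacyclin or prostaglandin D2, receptors on the cell surface pass the signal on, and 15-hydroxyprostaglandin dehydrogenase inactivates it. In the ovary the pathway is known for its part in ovulation, when luteinizing hormone induces cyclooxygenase 2 in granulosa cells, and for luteal regression through the prostaglandin F receptor.

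Levels are given as CPM, the gene's UMIs scaled to the total UMIs of the cell group in a library, with the mean ± SD over 5 libraries unless stated. They are not divided by gene length, and 3′ capture differs between genes, so a gene is compared across groups and not with other genes. Groups within the libraries were compared with edgeR's quasi-likelihood test on UMIs summed per library and group, with a term for the library. Its replicates are 5 libraries of 5 ages, so a p-value sets the difference within libraries against how much that difference varied between libraries. Fewer cells expressing a gene cannot be told apart from less RNA per cell.

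**Figure D1:**
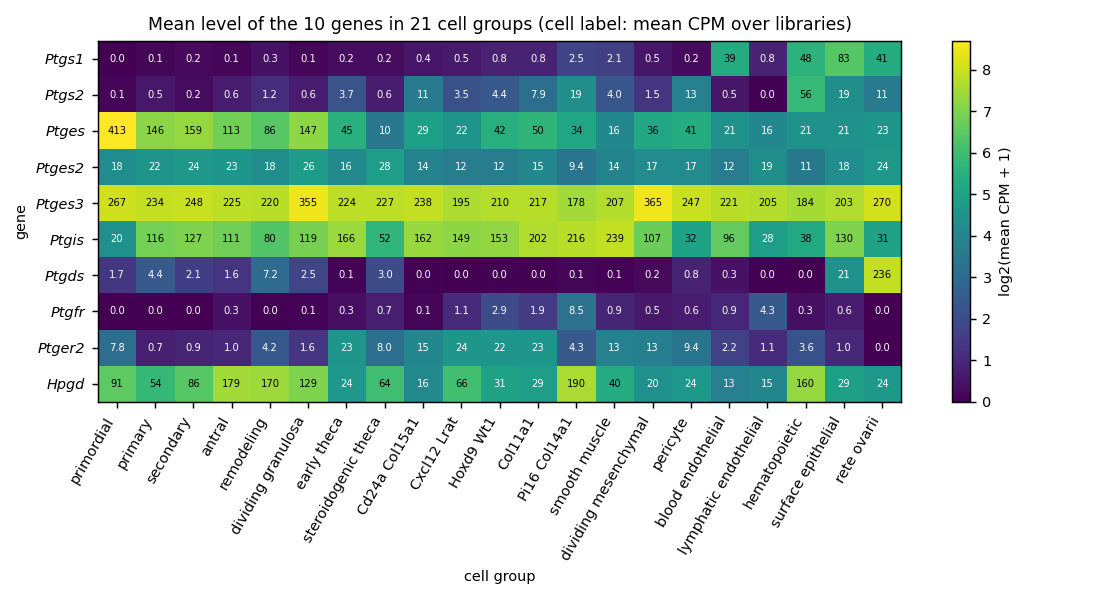
Mean CPM over libraries of the 10 genes (rows) in 21 cell groups (columns); color is log2(mean CPM + 1) and the number in each field is the mean CPM. Reading along a row, Ptgs1 was at 39.3 to 83.0 in blood endothelial, hematopoietic, surface epithelial and rete ovarii groups and at most 2.47 elsewhere, and Ptges was at 413 in the primordial group and at most 159 elsewhere.

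Ptgs1 and Ptgs2 encode the constitutive and the inducible cyclooxygenase. Hematopoietic, surface epithelial and rete ovarii cells were the only groups in which both had a mean above 10 CPM. UMIs of Ptgs2 were found in all groups but lymphatic endothelial cells. Hematopoietic cells held 253 of them and the far more numerous stromal-like cells 835. Ptgs1 (ENSMUSG00000047250, chr2:36230426-36252272 on the plus strand, GRCm38) was at 80.7, 92.1, 107, 55.8 and 79.6 CPM in surface epithelial cells of the 2, 3, 4, 5 and 6 wk libraries (83.0 ± 18.9). In hematopoietic cells it was at 21.3, 60.6, 39.4, 63.6 and 55.5 CPM (48.1 ± 17.6). In blood endothelial cells it was at 24.5, 42.9, 55.5, 32.5 and 41.1 CPM (39.3 ± 11.7). Surface epithelial cells were the highest of the 3 in every library except at 5 wk, where hematopoietic cells lay above them, and the hematopoietic and blood endothelial ranges overlapped over most of their length. The rete ovarii, with over 10 cells only at 2 and 3 wk, held 23.7 and 58.5 CPM. The remaining groups had means of at most 2.47 CPM, and no Ptgs1 UMI was seen in the 657 primordial cells, where 3 counts would correspond to 0.890 to 5.68 CPM depending on the library.

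Ptgs2 (ENSMUSG00000032487, chr1:150100031-150108227 on the plus strand) had 1750 UMIs in 580 cells, and its level varied widely between libraries. It was at 107, 27.8, 10.9, 81.7 and 52.9 CPM in hematopoietic cells (56.0 ± 39.0), where 10.7% of cells had a UMI (95% exact binomial interval 8.14 to 13.8%; median 6655.5 UMIs per cell), against 0.557% of blood endothelial cells (0.152 to 1.42%; median 8910 UMIs). In Pi16 Col14a1 fibroblasts it was at 9.63, 11.2, 18.3, 44.3 and 10.7 CPM (18.8 ± 14.6), and in Cd24a Col15a1 fibroblasts at 3.62, 1.71, 12.1, 22.1 and 15.7 CPM (11.1 ± 8.49). Surface epithelial cells held 9.80, 11.9, 5.64, 64.1 and 3.79 CPM. The 5 wk library was the highest in each of the last 3 groups. A few cells carried much of the total: of the 101 Ptgs2 UMIs of pericytes, found in 16 of 859 cells, 67.3% lay in 5 cells, as did 50.6% of the 253 UMIs of hematopoietic cells. Granulosa groups were at 0.113 to 1.18 CPM on average, so the gene was near 0 at every follicle stage that formed a group. Neighbors in this order overlapped.

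**Figure D2:**
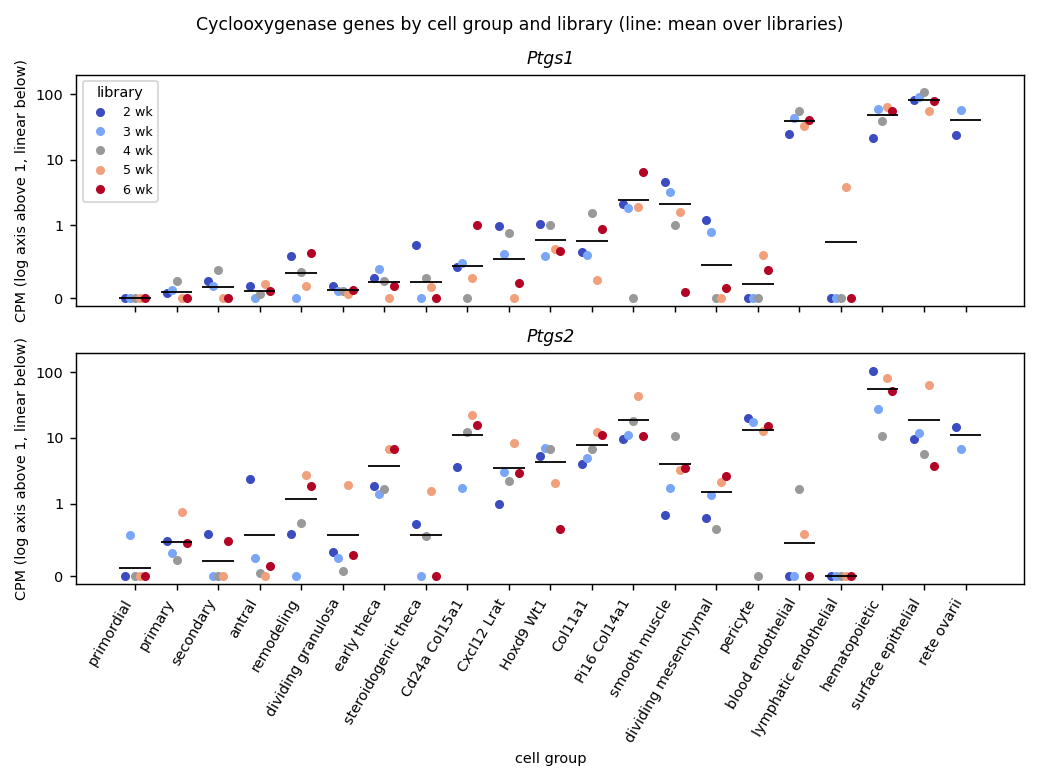
CPM of Ptgs1 (top) and Ptgs2 (bottom) in 21 cell groups; each point is 1 library, colored by age, the line is the mean, and the axis is logarithmic above 1 and linear below. Ptgs1 was at 21.3 CPM or more in every library of the surface epithelial, hematopoietic, blood endothelial and rete ovarii groups, whereas Ptgs2 spread from 10.9 to 107 CPM within hematopoietic cells.

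The promoter windows of the pair are shown because both enzymes catalyze the same step while their highest means lay in different groups, surface epithelial cells for Ptgs1 and hematopoietic cells for Ptgs2. They come from the RefSeq annotation of GRCm38.p6 and run from 250 bases before to 50 bases after the annotated start, Ptgs1 at chr2:36230176-36230475 and Ptgs2 at chr1:150099781-150100080, both on the plus strand. The motifs searched on both strands were the TATA box TATAAA, the E-box motif CACGTG and the cAMP response half-site TGACG, and capitals mark a match.
Ptgs1: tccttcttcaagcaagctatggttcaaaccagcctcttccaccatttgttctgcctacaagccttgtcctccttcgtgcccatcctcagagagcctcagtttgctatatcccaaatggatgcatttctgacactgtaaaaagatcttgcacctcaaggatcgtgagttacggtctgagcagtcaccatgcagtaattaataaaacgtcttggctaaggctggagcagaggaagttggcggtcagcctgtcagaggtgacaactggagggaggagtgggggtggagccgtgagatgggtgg
Ptgs2: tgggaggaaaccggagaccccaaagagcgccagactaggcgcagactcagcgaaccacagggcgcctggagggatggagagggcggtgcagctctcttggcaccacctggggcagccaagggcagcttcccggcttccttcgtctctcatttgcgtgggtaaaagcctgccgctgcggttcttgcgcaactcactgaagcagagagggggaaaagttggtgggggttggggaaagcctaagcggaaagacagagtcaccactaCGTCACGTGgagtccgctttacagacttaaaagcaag
The Ptgs2 window held 1 CACGTG and 1 TGACG, the latter read on the minus strand as CGTCA and overlapping the former, and the Ptgs1 window held none of the 3. Of 32851 promoter windows of this length, 7.15% held CACGTG, 20.8% TGACG and 13.6% TATAAA. Windows were found for 9 of the 10 genes.

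Among the synthases, Ptges encodes the inducible microsomal prostaglandin E synthase. Ptges (ENSMUSG00000050737, chr2:30889471-30929863 on the minus strand) was highest in primordial granulosa cells, at 448, 524, 399, 385 and 308 CPM (413 ± 80.3), and every one of these libraries lay above every library of every other named group. Secondary (159 ± 27.7), dividing (147 ± 17.0), primary (146 ± 29.2) and antral (113 ± 16.9) granulosa cells followed with overlapping ranges. Outside granulosa cells its mean was 10.1 to 50.1 CPM.

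These lower levels were set beside those of a granulosa marker in the same cells. Inha, the inhibin alpha gene of granulosa cells, was at 4225 CPM in granulosa-like cells and at 335 CPM, 7.94% of that, in blood endothelial cells, where Ptges was at 10.1% of its granulosa level. In stromal-like cells Inha was at 2.28% and Ptges at 27.0% of the granulosa level. A Ptges UMI was found in 66.4% of granulosa-like cells (median 14916 UMIs), 24.6% of stromal-like cells (median 9473.5) and 6.96% of blood endothelial cells (median 8910). Stromal Ptges was far above the share that Inha kept in the same cells, and blood endothelial Ptges was close to it. In theca-like cells Ptges, at 6.68% of its granulosa level, lay below Inha, at 15.98%. Other granulosa markers kept unlike shares there, some below that of Ptges and some above it. Fst, Amh, Nr5a2 and Cyp19a1 were at 16.4, 18.0, 21.9 and 0.797 CPM, against 452, 477, 433 and 12.3 CPM in granulosa-like cells. Foxl2, Amhr2 and Tdrd5 were at 47.8, 69.2 and 73.1 CPM, against 191, 260 and 212 CPM. The source of the low Ptges levels outside granulosa cells was not tested, here or in the comparisons below.

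Ptges2 and Ptges3 were detected in all groups. Ptges2 (ENSMUSG00000026820, chr2:32395896-32405772, plus strand), a membrane-associated prostaglandin E synthase, ranged only from 9.43 to 27.7 CPM between group means. Steroidogenic theca cells were the highest, at 24.0, 21.6, 29.9, 43.4 and 19.5 CPM, and overlapped with dividing granulosa cells (26.3 ± 2.80). Ptges3 (ENSMUSG00000071072, chr10:128058954-128077272, plus strand), the cytosolic synthase that is also the HSP90 cochaperone p23, was at 354, 382, 349, 400.2 and 339 CPM in dividing mesenchymal cells and at 352, 387, 319, 379 and 338 CPM in dividing granulosa cells. The libraries of both dividing groups lay above all libraries of the other groups, whose means were 178 to 270.1 CPM. The dividing groups also had the most UMIs per cell, with medians of 20288 and 21228.

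Ptgis (ENSMUSG00000017969, chr2:167191805-167240604, minus strand) encodes prostacyclin synthase. It was highest in smooth muscle cells of the second clustering, at 281, 277, 241, 241 and 154 CPM (239 ± 50.9), followed with overlapping ranges by Pi16 Col14a1 (216 ± 23.2) and Col11a1 (202 ± 36.7) fibroblasts. The lowest mean was that of primordial granulosa cells, at 23.1, 15.8, 27.8, 13.3 and 18.0 CPM (19.6 ± 5.86). Lymphatic endothelial (28.0 ± 21.2), pericyte (32.2 ± 8.46), hematopoietic (37.7 ± 24.3) and rete ovarii (17.2 and 44.9) libraries overlapped with it. The gene therefore ran the opposite way to Ptges in primordial cells, lowest where Ptges was highest.

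Ptgds (ENSMUSG00000015090, chr2:25466709-25470046, minus strand), the lipocalin-type prostaglandin D synthase, had its highest CPM in the rete ovarii. It was at 183 and 289 CPM in the 2 and 3 wk libraries there, with a UMI in 75.6% of the 90 cells. CPM is a share of each group's RNA, so this small group need not hold most of the gene's UMIs. Surface epithelial cells held 15.8, 32.7, 14.1, 23.7 and 17.1 CPM, and remodeling granulosa cells 4.65, 3.45, 9.67, 13.6 and 4.39 CPM. It was not seen in the 494 hematopoietic cells, where 3 counts would correspond to 2.27 to 7.58 CPM, nor in lymphatic endothelial cells or Cxcl12 Lrat and Col11a1 fibroblasts. Steroidogenic theca cells held 0.363, 1.62, 7.14, 5.16 and 0.649 CPM, but 55.8% of their 104 UMIs lay in 5 cells.

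Both receptors had their highest means in fibroblast groups. Ptgfr (ENSMUSG00000028036, chr3:151796502-151837630, minus strand), which binds prostaglandin F2 alpha, was at 1.78, 3.74, 11.6, 12.7 and 12.9 CPM in Pi16 Col14a1 fibroblasts, on 51 UMIs, and had no UMI in primordial, primary or secondary granulosa cells. Antral cells held 0.171, 0.126, 0, 0.475 and 0.936 CPM on 26 UMIs. Ptger2 (ENSMUSG00000037759, chr14:44988195-45003820, plus strand), the EP2 receptor for prostaglandin E2, was at 24.7, 21.1, 15.2, 22.0 and 34.5 CPM in Cxcl12 Lrat fibroblasts (23.5 ± 7.04). Early theca (22.9 ± 10.5), Col11a1 (22.9 ± 10.2) and Hoxd9 Wt1 (22.4 ± 11.6) cells did not differ from them beyond this spread, and the 6 wk library was the highest in all 4 groups. Pi16 Col14a1 fibroblasts, the highest for Ptgfr, were low for Ptger2 (4.32 ± 2.53). Growing granulosa cells were lowest among the larger groups, at 0.695 to 0.979 CPM in primary, secondary and antral cells, while primordial cells held 5.93, 0.564, 12.4, 9.47 and 10.8 CPM.

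Hpgd (ENSMUSG00000031613, chr8:56294585-56321043, plus strand), the 15-hydroxyprostaglandin dehydrogenase, was high in 4 unlike groups whose ranges overlapped. Pi16 Col14a1 fibroblasts held 216, 156, 178, 228 and 169 CPM (189.6 ± 31.3), antral granulosa cells 179 ± 51.0, remodeling granulosa cells 169.7 ± 46.2 and hematopoietic cells 159.6 ± 65.9. Blood endothelial cells had the lowest mean, at 12.9 ± 10.2 CPM. Lymphatic endothelial (14.9 ± 15.4) and Cd24a Col15a1 (16.3 ± 13.9) cells, among others, overlapped with them. Over all libraries blood endothelial cells held 7.39% of the granulosa-like level of Hpgd, close to the 7.94% for Inha. The source of this low Hpgd level was not tested either.

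Across follicle stages, Ptges had its highest and Ptgis its lowest mean in primordial cells, and Hpgd had its lowest in primary cells. From primordial to primary cells Ptges and Hpgd fell and Ptgis rose, and from primary to antral cells Hpgd rose at each step. Remodeling cells had more Ptgds and less Ptges and Ptgis than antral cells.

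**Figure D3:**
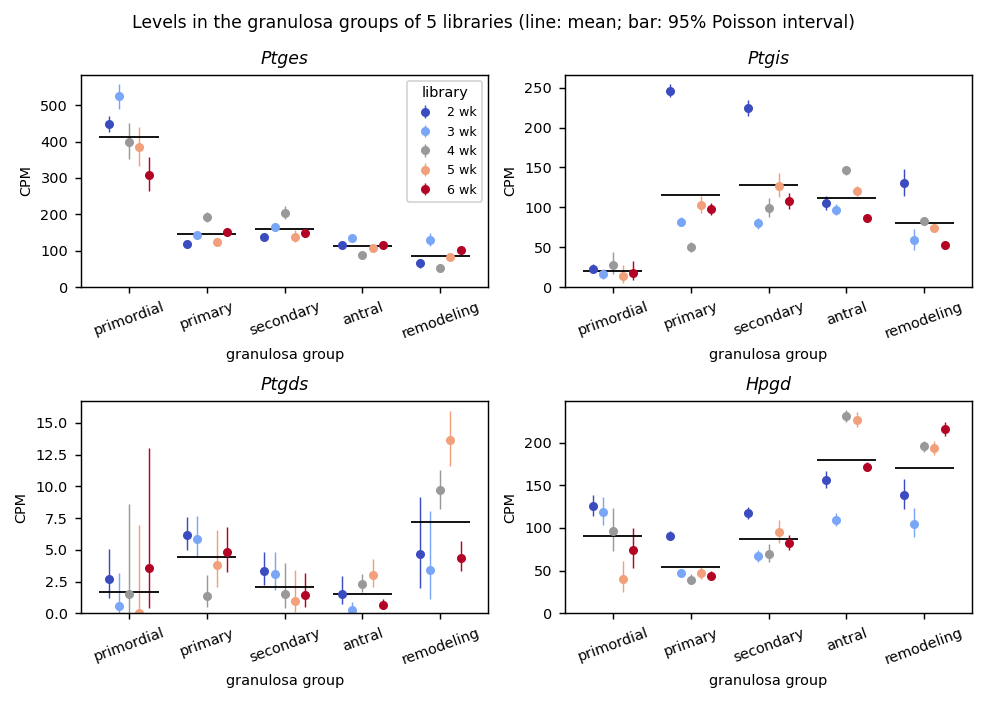
CPM of Ptges, Ptgis, Ptgds and Hpgd in 5 granulosa groups; each point is 1 library with its exact 95% Poisson interval, and the line is the mean. The primordial points of Ptges (308 to 524 CPM) lie above all other points of that panel, those of Ptgis (13.3 to 27.8 CPM) below all others, and Hpgd runs from 53.7 in primary to 179 in antral cells.

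Primary against primordial cells gave 4 called genes among the 6 that passed the filter on low counts, where 34.9% of all 10678 genes tested were called: 2 were higher, against 17.1% of all genes, and 2 lower, against 17.8%. Ptgis rose from 19.6 ± 5.86 to 116 ± 75.6 CPM, with primary values of 246, 81.9, 49.9, 103 and 97.8 (log2 2.83 ± 0.23 SE, edgeR adjusted p = 7.8e-09). Ptges fell by 1.48 ± 0.11 on the log2 scale (edgeR adjusted p = 3.4e-09). Neither gene's groups overlapped. Hpgd fell from 125, 119, 95.8, 39.8 and 73.8 to 91.0, 47.0, 39.5, 46.8 and 44.0 CPM (log2 -0.73 ± 0.15 SE, edgeR adjusted p = 0.00097), lower in 4 of 5 libraries. Ptgds rose from 1.68 ± 1.48 to 4.41 ± 1.93 CPM (log2 1.60, edgeR adjusted p = 0.0071), a call lost without the 3 wk library (log2 1.19, adjusted p = 0.080), and it did not pass the filter without the 2 wk or the 6 wk library. The Ptgds call was also lost with DESeq2 (adjusted p = 0.0629) and in an edgeR fit over all granulosa groups together (0.0721). Without a library term, edgeR lost the calls of Ptgds (adjusted p = 0.0869) and Hpgd (0.0659). Ptger2 did not pass the filter, with 7.83 ± 4.70 CPM in primordial and 0.695 ± 0.442 CPM in primary cells and a lower primary value in every library. The sum of 12 immediate-early and heat-shock genes, which respond to dissociation, also moved: 9577 to 15397 CPM in primordial and 3855 to 8049 CPM in primary cells, with all 12 lower in primary cells. Its part in these results was not tested.

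Secondary against primary cells gave 4 called genes among 6 tested, against 26.7% of all 11061: 3 were higher (14.1% of all genes) and 1 lower (12.6%). Hpgd rose in all 5 libraries, to 117, 67.0, 70.0, 95.5 and 82.8 CPM (log2 0.75 ± 0.09 SE, edgeR adjusted p = 4.0e-06). Ptgds fell (log2 -0.95 ± 0.23 SE, edgeR adjusted p = 0.0053). Ptges and Ptges3 rose by only 0.23 and 0.18 on the log2 scale (edgeR adjusted p = 0.0033 and 0.015), higher in 4 and 3 of 5 libraries by CPM, and the Ptges3 call was lost without the 3 wk (adjusted p = 0.114) or the 6 wk library (0.0884). Ptgis (log2 0.26, adjusted p = 0.076) was called without the 2 wk library (log2 0.38, edgeR adjusted p = 0.0027). In a fit over all granulosa groups together, none of the 4 calls held, with edgeR adjusted p from 0.0566 for Hpgd to 0.338 for Ptges. Of the immediate-early and heat-shock genes 5 were higher and 2 lower in secondary cells, with sums of 3982 to 9244 CPM, and their part was not tested here or at the next steps.

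Antral against secondary cells gave 2 called genes among 6 tested, against 26.4% of all 11421: 1 was higher (13.6%) and 1 lower (12.8%). Hpgd rose to 156, 109, 231, 227 and 172 CPM (log2 1.01 ± 0.16 SE, edgeR adjusted p = 0.0018), higher in 5 of 5 libraries. Ptges fell from 137, 164, 204, 139 and 149 to 117, 135, 88.4, 108 and 117 CPM (log2 -0.48 ± 0.12 SE, edgeR adjusted p = 0.016), with the largest difference at 4 wk. Both calls held without any 1 library. Of the immediate-early and heat-shock genes 5 of 12 were higher in antral cells and none lower, with sums of 6427 to 9296 CPM.

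Remodeling against antral cells gave 4 called genes among 7 tested, against 37.2% of all 12203: 2 were higher (18.9%) and 2 lower (18.3%). Ptgds rose from 1.54, 0.252, 2.28, 3.04 and 0.690 to 4.65, 3.45, 9.67, 13.6 and 4.39 CPM (log2 2.19 ± 0.21 SE, edgeR adjusted p = 5.1e-05), without overlap. Ptges fell to 65.0, 129.7, 53.2, 82.8 and 101 CPM (log2 -0.50 ± 0.11 SE, edgeR adjusted p = 0.0061), lower in 5 of 5 libraries. Ptgis fell (log2 -0.61 ± 0.14 SE, edgeR adjusted p = 0.0072) in 4 of 5 libraries, the 2 wk library being higher. Ptger2 rose from 0.979 ± 0.567 to 4.22 ± 1.70 CPM (log2 1.59 ± 0.43 SE, edgeR adjusted p = 0.017). That call was lost without the 5 wk (adjusted p = 0.0586) or the 6 wk library (0.0920), and when the 10 genes were allowed to shape the clusters (log2 0.75, edgeR adjusted p = 0.244). Hpgd (log2 -0.14, adjusted p = 0.27) was called lower without the 6 wk library (log2 -0.25, edgeR adjusted p = 0.030). Of the immediate-early and heat-shock genes 6 of 12 were higher in remodeling cells and none lower, with sums of 7119 to 11791 CPM.

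Between the main cell classes, granulosa-like cells had less cyclooxygenase and receptor RNA and more Hpgd RNA than stromal-like cells, and of the 5 synthase genes 3 were higher and 1 lower. The test called 9 of the 10 genes, against 69.7% of all 14893, so calls were common in this comparison: 4 were higher (36.0% of all genes) and 5 lower (33.7%). Each call held without any 1 library.

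Receptors and cyclooxygenases were lower in granulosa-like cells. Ptger2 was at 1.27, 0.732, 1.52, 2.93 and 2.52 CPM against 18.9, 10.4, 12.5, 17.4 and 33.8 in stromal-like cells (log2 -3.56 ± 0.23 SE, edgeR adjusted p = 1.1e-05). Ptgfr was at 0.134 ± 0.139 against 1.38 ± 0.411 CPM (log2 -3.68 ± 0.64 SE, edgeR adjusted p = 0.0015). Ptgs2 was at 0.598, 0.230, 0.245, 1.46 and 0.573 against 3.22, 3.28, 5.87, 12.1 and 7.02 CPM (log2 -3.60 ± 0.30 SE, edgeR adjusted p = 3.3e-05). None of these ranges overlapped. The 12 immediate-early and heat-shock genes were also lower in granulosa-like cells, 12 of 12, with sums of 4990 to 8683 against 13920 to 21221 CPM, and their part in the Ptgs2 difference was not tested. Ptgs1 was low in both classes (0.189 ± 0.0305 and 0.534 ± 0.134 CPM; log2 -1.64, edgeR adjusted p = 0.00082).

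The synthases were mixed. Ptges was at 150.1, 170.3, 112, 113 and 133 against 20.6, 38.6, 57.7, 35.8 and 39.1 CPM in stromal-like cells (log2 1.72 ± 0.23 SE, edgeR adjusted p = 0.00043). Ptgds was at 4.10 ± 1.82 against 0.0889 ± 0.0812 CPM, the latter on 13 UMIs (log2 5.25 ± 0.53 SE, edgeR adjusted p = 9.2e-05), and Ptges2 at 23.5 ± 2.04 against 14.8 ± 1.96 CPM (log2 0.52 ± 0.11 SE, edgeR adjusted p = 0.0041). Ptgis went the other way, at 115 ± 37.5 against 160.1 ± 34.0 CPM (log2 -0.67 ± 0.09 SE, edgeR adjusted p = 0.00039), lower in 5 of 5 libraries though the ranges overlapped. Hpgd was at 104, 78.5, 168, 179.6 and 148 against 64.2, 30.2, 30.1, 41.2 and 33.2 CPM (log2 1.61 ± 0.26 SE, edgeR adjusted p = 0.0011). Ptges3 was not called (log2 0.07 ± 0.05 SE, edgeR adjusted p = 0.25).

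**Figure D4:**
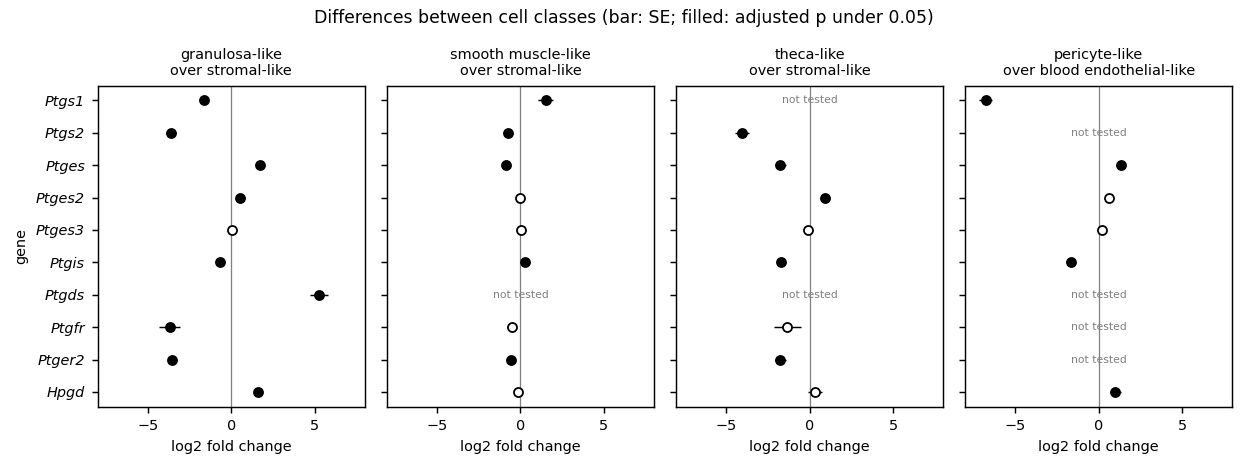
Log2 fold change with SE of the 10 genes in 4 comparisons of cell classes by edgeR; filled points had an adjusted p under 0.05, and genes that did not pass the filter on low counts are marked. Ptgds at 5.25 is the highest point and Ptgs1 at -6.77 in pericytes over blood endothelial cells the lowest.

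Smooth muscle-like and theca-like cells were compared with the same stromal-like samples, so the 3 comparisons are not independent. Of the 4878 smooth muscle-like cells, 869 came from a cluster led by genes of dividing cells, with a median of 18625 UMIs. That cluster scored 1.10 for smooth muscle and 0.949 for stromal markers. The stromal-like class also held a cluster of dividing cells, 803 in number. The part of dividing cells in these results was not tested. In smooth muscle-like cells 5 of 9 tested genes were called, against 46.3% of all 13355: 2 were higher (21.8%) and 3 lower (24.6%). Ptges was lower in 5 of 5 libraries (20.6 ± 6.39 against 38.4 ± 13.2 CPM; log2 -0.88 ± 0.07 SE, edgeR adjusted p = 7.7e-06), as was Ptger2 (12.7 ± 6.38 against 18.6 ± 9.17 CPM; log2 -0.55 ± 0.07 SE, edgeR adjusted p = 0.00013). Ptgis was higher in 5 of 5 libraries (196 ± 33.2 against 160.1 ± 34.0 CPM; log2 0.29 ± 0.08 SE, edgeR adjusted p = 0.011), a call lost without the 5 wk library (adjusted p = 0.0511). In an edgeR fit over all named groups together, the calls of Ptger2 (adjusted p = 0.110), Ptgis (0.482) and Ptgs2 (0.375) were lost. Without a library term, edgeR lost those of Ptger2 (adjusted p = 0.405), Ptgis (0.251), Ptgs1 (0.0768) and Ptgs2 (0.464). When single libraries were left out, the cyclooxygenase calls were lost more often than the others. Ptgs1 at 3.68, 2.67, 0.844, 1.17 and 0.200 CPM was higher (log2 1.51, edgeR adjusted p = 0.017) except at 6 wk, and was lost without the 2, 3 or 5 wk library (adjusted p = 0.0921, 0.0739 and 0.0522). Ptgs2 was lower (log2 -0.74, edgeR adjusted p = 0.037) except at 4 wk, and was lost without the 2, 3, 5 or 6 wk library (adjusted p = 0.0623, 0.0692, 0.176 and 0.0838). Hpgd (log2 -0.17, adjusted p = 0.17) was called lower without the 6 wk library (log2 -0.28, edgeR adjusted p = 0.017). Of the immediate-early and heat-shock genes 5 were higher and 2 lower in smooth muscle-like cells, with sums of 13967 to 20371 CPM, and their part was not tested.

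Theca-like cells had less Ptgis, Ptges, Ptger2 and Ptgs2 RNA than stromal-like cells and more Ptges2 RNA. They gave 5 called genes among 8 tested, against 44.4% of all 13214: 1 was higher (19.9%) and 4 lower (24.6%). Ptgis was at 84.9, 57.4, 59.5, 28.8 and 31.3 CPM against 160.1 ± 34.0 in stromal-like cells (log2 -1.73 ± 0.17 SE, edgeR adjusted p = 0.00010). Ptges was at 17.4, 13.2, 18.7, 3.50 and 13.1 CPM (log2 -1.75 ± 0.35 SE, edgeR adjusted p = 0.0040). Ptger2 (6.62 ± 5.04 CPM; log2 -1.76 ± 0.32 SE, edgeR adjusted p = 0.0025) and Ptgs2 (0.303 ± 0.430 CPM on 14 UMIs; log2 -4.03 ± 0.42 SE, edgeR adjusted p = 0.000155) were lower in all libraries. Of the immediate-early and heat-shock genes, 11 of 12 were also lower in theca-like cells, with sums of 7385 to 13789 CPM, and their part in the Ptgs2 difference was not tested. Ptges2 alone was called higher (29.2 ± 9.11 against 14.8 ± 1.96 CPM; log2 0.93 ± 0.19 SE, edgeR adjusted p = 0.0043), in 5 of 5 libraries. Ptgfr (log2 -1.32, adjusted p = 0.22) was called lower without the 2 wk library (log2 -2.28, edgeR adjusted p = 0.046). Ptgds did not pass the filter, with 3.56 ± 3.49 against 0.0889 ± 0.0812 CPM and no overlap.

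Within the theca lineage, which shares cells with that class, steroidogenic theca cells had less Ptges, Ptgis and Ptger2 RNA and more Ptges2 RNA than early theca cells. Of 6 genes tested 4 were called, against 32.9% of all 10747: 1 was higher (15.6%) and 3 lower (17.3%). Ptges was at 12.4, 9.70, 15.4, 2.24 and 10.7 against 18.9, 41.7, 69.7, 49.98 and 46.1 CPM (log2 -2.39 ± 0.44 SE, edgeR adjusted p = 0.0046), without overlap. Ptgis was at 52.3 ± 24.1 against 166 ± 46.8 CPM (log2 -1.82 ± 0.17 SE, edgeR adjusted p = 0.00027), and Ptger2 at 8.04 ± 5.83 against 22.9 ± 10.5 CPM (log2 -1.80 ± 0.31 SE, edgeR adjusted p = 0.0035). Ptges2 was higher (27.7 ± 9.65 against 16.3 ± 2.67 CPM; log2 0.66 ± 0.18 SE, edgeR adjusted p = 0.025), a call lost without the 2 wk (adjusted p = 0.0728) or the 4 wk library (0.0678). Hpgd was at 73.7, 75.2, 25.8, 17.1 and 128 against 51.6, 10.2, 16.9, 16.2 and 25.5 CPM, higher in 5 of 5 libraries. It lay at the threshold (log2 1.22 ± 0.40 SE, edgeR adjusted p = 0.0505) and was called without the 2 wk (adjusted p = 0.0494) or the 5 wk library (0.0093). DESeq2 (adjusted p = 0.0049), an edgeR fit over all mesenchymal groups together (0.00047) and other alternatives also called it. It stayed uncalled without doublets, without a library term and without the 3, 4 or 6 wk library. Of the immediate-early and heat-shock genes 5 of 12 were lower in steroidogenic cells and none higher, with sums of 8036 to 13805 against 11134 to 15222 CPM, and their part was not tested.

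In the vessel wall, pericytes had less Ptgs1 and Ptgis RNA and more Ptges and Hpgd RNA than blood endothelial cells. Pericytes against blood endothelial cells gave 4 called genes among 6 tested, against 41.6% of all 9160: 2 were higher (19.9%) and 2 lower (21.7%). Ptgs1 was at 0.196 ± 0.277 against 39.3 ± 11.7 CPM (log2 -6.77 ± 0.39 SE, edgeR adjusted p = 1.1e-07), on 2 UMIs in pericytes. Ptgs2 did not pass the filter and was not tested, with 19.9, 17.7, 0, 13.002 and 15.1 CPM in pericytes and 0, 0, 1.68, 0.584 and 0 CPM in blood endothelial cells, so pericytes were the higher except at 4 wk. Pericytes also had higher immediate-early and heat-shock RNA, 10 of 12 genes, with sums of 15018 to 19737 against 10095 to 13645 CPM, and its part in the Ptgs2 values was not tested. Ptgis was lower in pericytes (44.7, 28.3, 34.4, 31.9 and 21.6 against 100.2, 73.6, 70.7, 133 and 100.2 CPM; log2 -1.64 ± 0.20 SE, edgeR adjusted p = 3.5e-05), and Ptges was higher (41.0 ± 14.8 against 20.8 ± 10.2 CPM; log2 1.35 ± 0.29 SE, edgeR adjusted p = 0.0029). Hpgd was higher in 4 of 5 libraries (log2 0.9997 ± 0.31 SE, edgeR adjusted p = 0.022), a call lost without the 5 wk (adjusted p = 0.0531) or the 6 wk library (0.110). An edgeR fit over all named groups together (adjusted p = 0.125) and one without a library term (0.0818) also lost the Hpgd call.

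Other genes of the pathway, on lists chosen with earlier results known, are given by counts and medians beside the median of all genes in the same comparison. Of 8 other prostanoid receptor genes, 5 were tested in granulosa-like over stromal-like cells and 4 were lower, against 33.7% of all genes, with a median of -2.57 on the log2 scale against 0.04 for all genes. Ptger4, the EP4 receptor, was at 1.14 against 14.7 CPM on average (log2 -3.88, edgeR adjusted p = 1.5e-05) and Tbxa2r, the thromboxane receptor, at 0.184 against 2.97 CPM (log2 -4.06, edgeR adjusted p = 1.7e-05). In theca-like over stromal-like cells 2 of 5 were lower, against 24.6% of all genes, with a median of -0.94 against -0.02. They included Ptger4 at 3.75 against 14.7 CPM (log2 -1.96, edgeR adjusted p = 0.00013). In remodeling over antral cells 1 of 3 was higher, against 18.9% of all genes, with a median of 0.47 against -0.01. This was Ptger3, the EP3 receptor, at 9.57 against 2.31 CPM (log2 1.93, edgeR adjusted p = 4.9e-05).

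Of 12 other synthesis genes on the list, 7 were tested in granulosa-like over stromal-like cells, with 2 higher and 4 lower, against 36.0% and 33.7% of all genes, and a median of -0.45 against 0.04. Alox5ap, which helps 5-lipoxygenase make leukotrienes, was at 0.897 against 21.6 CPM (log2 -4.55, edgeR adjusted p = 1.5e-05), and Fam213b, a prostamide and prostaglandin F synthase, at 38.1 against 20.1 CPM (log2 0.76, edgeR adjusted p = 0.00011). In steroidogenic over early theca cells 4 of 6 were lower, against 17.3% of all genes, with a median of -0.61 against 0.01 for all genes. Pla2g4a, the phospholipase that frees arachidonic acid, was at 5.06 against 17.5 CPM (log2 -2.001, edgeR adjusted p = 0.00074).

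Of 5 transport and breakdown genes, 4 were tested between pericytes and blood endothelial cells, with 1 higher and 2 lower, against 19.9% and 21.7% of all genes, and a median of -2.29 against -0.02. Slco2a1, the prostaglandin transporter, was at 1.87 against 365 CPM (log2 -7.95, edgeR adjusted p = 8.7e-09) and Abcc4, an efflux transporter, at 1.003 against 35.5 CPM (log2 -4.94, edgeR adjusted p = 4.1e-07). In granulosa-like over stromal-like cells 1 of 5 was called, against 69.7% of all genes, and the median was -0.05 against 0.04. This was Cbr1, which was lower, against 33.7% of all genes. Of 9 cumulus expansion and ovulatory genes, which the ovulatory signal induces beside Ptgs2, 7 were lower and 1 higher in granulosa-like than in stromal-like cells, against 33.7% and 36.0% of all genes, with a median of -3.55 against 0.04. Tnfaip6 was at 1.45 against 33.4 CPM (log2 -4.30, edgeR adjusted p = 7.5e-05), and in remodeling over antral cells 1 of 4 tested rose and 1 fell, against 18.9% and 18.3% of all genes, with a median of -0.24 against -0.01.

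Genes with the most similar pattern over the 21 group means, among 13420 genes, were ranked by Pearson's r of log2(CPM + 1), as a description over groups that share libraries. They were Tapbpl (0.91), Il18bp (0.91) and P2rx7 (0.91) for Ptgs1, and Cd44 (0.91), Cstb (0.89) and Glrx (0.88) for Ptgs2. For Ptges they were Synpo (0.92), Heatr6 (0.91) and Tex14 (0.90), for Ptges2 Hdhd2 (0.92), Naa38 (0.92) and Lonp1 (0.91), and for Ptges3 Smc3 (0.91), Rbmxl1 (0.89) and Tubg1 (0.89). For Ptgis they were Sertad4 (0.88), Parp16 (0.83) and P2ry1 (0.80), and for Ptgds Crb3 (0.95), 4933406C10Rik (0.94) and Rec8 (0.94). For Ptger2 they included Kcnip3 (0.93) and Gm26719 (0.92), and for Hpgd they were Kirrel3os (0.78), Fam46a (0.78) and Zfp385b (0.77). Hpgd, high in unlike groups, had the weakest matches, and Ptgfr, whose group means stayed below 10 CPM, was not ranked.

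The study followed the ovary through puberty, so the 5 wk library was set beside the 2 wk library. With 1 library per age no test was possible, and the intervals are exact conditional 95% intervals that cover counting error only. They take each UMI as independent, although UMIs can share a cell. For example, the 835 stromal-like Ptgs2 UMIs of all libraries lay in 286 of 13110 cells. The 2, 3 and 4 wk matrices name Cell Ranger 3.1.0 in their headers and those of 5 and 6 wk name 6.0.1, so age and software version cannot be told apart. Genes with at least 20 UMIs over both ages and a ratio of at least 2-fold either way were counted.

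**Figure D5:**
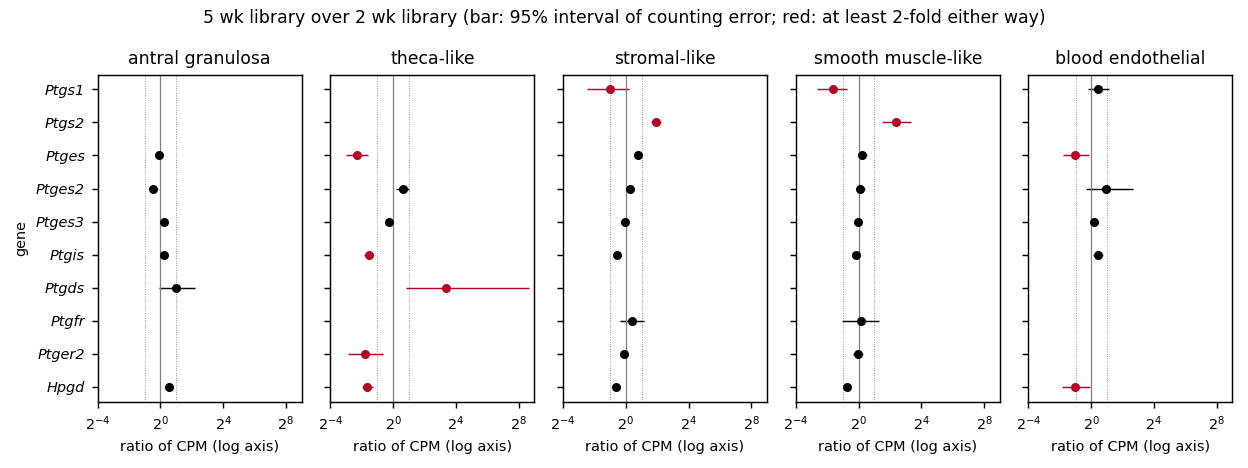
Ratio of CPM at 5 wk to CPM at 2 wk with its exact 95% counting interval, on a log axis, for genes with at least 20 UMIs in the 5 cell types; red points are at least 2-fold apart either way. All antral points lie between 0.728 and 1.97, and 5 of 7 theca-like points are red.

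In antral granulosa cells 0 of 6 genes were 2-fold apart, against 12.2% of all genes counted there (6.53% up and 5.63% down), with ratios from 0.728 for Ptges2 to 1.97 for Ptgds. Hpgd was at 156 CPM at 2 wk and 227 CPM at 5 wk, a ratio of 1.45 (1.34 to 1.57). Below the minimum of 20 UMIs, Ptgs2 gave 14 UMIs at 2 wk and none at 5 wk. Ptger2 gave 2 and 14 UMIs at these ages, Ptgfr 1 and 5, and Ptgs1 1 and 2.

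In theca-like cells, of which there were 107 at 2 wk and 579 at 5 wk, 5 of 7 genes were 2-fold apart, against 21.3% of all genes: 1 was up (11.6% of all) and 4 down (9.67%). Ptges was at 17.4 and 3.50 CPM (ratio 0.201, 0.126 to 0.325), Ptgis at 84.9 and 28.8 CPM (0.339, 0.282 to 0.411), Hpgd at 54.3 and 17.3 CPM (0.318, 0.251 to 0.405) and Ptger2 at 6.33 and 1.83 CPM (0.288, 0.139 to 0.633). At 6 wk Ptges was at 13.1, Ptger2 at 14.8, Hpgd at 117 and Ptgis at 31.3 CPM, so the first 3 lay well above their 5 wk values. Ptgds went from 1 UMI to 71 UMIs, a ratio of 10.2 with an interval of 1.78 to 410.1. Ptges2 was at 29.0 and 44.0 CPM (1.52, 1.15 to 2.04). The steroidogenic theca group shares cells with this class. There a cluster led by Cyp11a1 and Serpina5 gave 60 of 165 cells at 2 wk. It gave 474 of 600 at 5 wk and 40 of 146 at 6 wk, so the mixture differed between ages. The part of this mixture in the theca-like values was not tested.

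In stromal-like cells 2 of 9 genes were 2-fold apart, against 10.5% of all genes (5.95% up and 4.59% down), and in smooth muscle-like cells 2 of 9, against 9.10% (3.61% up and 5.49% down). In both classes these were the cyclooxygenases, in opposite directions. Stromal-like Ptgs2 was at 3.22 CPM at 2 wk and 12.1 CPM at 5 wk (ratio 3.76, 3.03 to 4.68), and smooth muscle-like Ptgs2 at 0.921 and 4.76 CPM (5.17, 2.78 to 10.3). Ptgs1 was at 0.675 and 0.334 CPM in stromal-like cells (0.495, 0.182 to 1.16) and at 3.68 and 1.17 CPM in smooth muscle-like cells (0.317, 0.158 to 0.591). The first of these Ptgs1 intervals includes 1. The summed immediate-early and heat-shock genes moved the same way as Ptgs2, from 13920 at 2 wk to 21221 CPM at 5 wk in stromal-like cells and from 13967 to 20371 CPM in smooth muscle-like cells. Their part in the Ptgs2 ratio was not tested. In blood endothelial cells 2 of 6 genes were 2-fold apart, against 13.5% (5.92% up and 7.54% down): Ptges (0.497, 0.285 to 0.907) and Hpgd (0.491, 0.271 to 0.934). Over all libraries these cells held Ptges at 10.1% and Hpgd at 7.39% of the granulosa-like level. The granulosa marker Inha was at 7.94%, and these shares were not taken per age.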

How the data were processed

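Single-cell RNA was measured in 5 libraries, 1 per age. The authors deposited UMI counts per gene and cell, made with Cell Ranger (3.1.0 for 2, 3 and 4 wk and 6.0.1 for 5 and 6 wk per the file headers) on mm10, and the submitters' processing notes name Seurat 4.1.0. From these counts, cells were integrated and clustered in Seurat 5.3.0 (R 4.3.3) with 2000 variable genes, from which the 10 genes were left out, 30 principal components and a resolution of 1, and the granulosa-like and mesenchymal cells were clustered again. Clusters were named by at least 3 detected markers, or, within granulosa cells, by a correlation of at least 0.7 with the study's cluster profile over 303 genes. Clusters of low depth, mostly doublets or led by markers of another class were left unnamed. Scrublet (scanpy 1.11.5) marked 162 to 555 doublets per library, which were kept and left out as an alternative.

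UMIs summed per library and group (at least 10 cells) were tested with edgeR 4.0.16 (TMM, filterByExpr, a library term, Benjamini-Hochberg over all genes tested). A gene was called at an adjusted p under 0.05. Scripts were tested on simulated data. Poisson, binomial and ratio intervals are exact, at 95%, and the limit for a count of 0 is 3 counts. They cover counting error only, as does the depth of 93438618 to 144609431 UMIs per library. All 10 genes were named. From each pathway list at most 4 called genes per comparison with the largest change could be named, and the 3 genes most alike in pattern for each gene of at least 10 CPM. One of these is not reported here. The genes and lists were chosen with earlier results of these data known. Alternatives were DESeq2 1.42.0, other fits, filters and clusterings, and leaving out libraries. Of the list of synthesis genes, 12 of 13 symbols were in the files. Coordinates are those of GENCODE vM21 and RefSeq on GRCm38.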

Additional observations from a re-analysis of the deposited data

Results flagged for a closer look

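In each library the log2 ratio of (CPM + 1) between the groups compared was set beside the other 4. Of 73 sets of 5 such ratios, 7 held 1 library far from the rest, and chance alone marks about 1 set in 20. Ptges in antral over secondary cells was -1.20 at 4 wk, against -0.36 to -0.23 in the other libraries. In remodeling over antral cells, where the 2 wk library held 148 remodeling-like cells, Ptgis was 0.31 at 2 wk, against -0.82 to -0.68, and Ptgds was 1.15 at 2 wk, against 1.67 to 1.86. In smooth muscle-like over stromal-like cells Ptges was -0.46 at 2 wk, against -1.004 to -0.86, and Ptges3 was -0.0925 at 4 wk, against 0.07 to 0.11. Ptger2 in steroidogenic over early theca cells was -2.85 at 5 wk, against -1.35 to -1.13. Ptgs2 in pericytes over blood endothelial cells was -1.42 at 4 wk, where pericytes held no Ptgs2 UMI, against 3.14 to 4.39.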

How the results depend on the processing

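Of 41 called results for single genes, 25 kept their direction and call under every alternative that gave them a value, and of 23 uncalled ones 14 stayed uncalled. A gene not tested under a setting gave none there. The counts in this section are of these genes only, without the share of all genes under each setting. A change in calls over all genes therefore cannot be told apart from one in these genes. Without a library term, edgeR called 2 of the genes in primary over primordial, 0 in secondary over primary, 1 in antral over secondary, 2 in remodeling over antral and 1 in smooth muscle-like over stromal-like cells. With all groups in 1 fit it called 0 in secondary over primary and 2 in smooth muscle-like over stromal-like cells. In both of these edgeR fits of secondary over primary cells, 2 of the genes had an unadjusted p under 0.05. In secondary over primary cells the stricter filter on cells gave 2 and DESeq2 gave 2. With every gene that had a count, 7 were called in steroidogenic over early theca and 7 in pericytes over blood endothelial cells. Leaving out each library gave 2 to 2 (antral over secondary), 9 to 9 (granulosa-like over stromal-like), 3 to 5 (pericytes), 3 to 4 (primary), 3 to 4 (remodeling), 3 to 5 (secondary), 2 to 5 (smooth muscle-like), 3 to 5 (steroidogenic theca) and 5 to 7 (theca-like). At a resolution of 0.6, 2 uncalled genes of smooth muscle-like over stromal-like cells reversed: Ptges3 to -0.17 and Hpgd to 0.24. There a cluster of 1636 dividing cells was named stromal-like, whereas the main clustering had 869 dividing cells in the smooth muscle-like class. Ptges3 was at 365 CPM in dividing mesenchymal and 207 in smooth muscle cells of the second clustering, and Hpgd at 19.5 and 40.1 CPM. The causes were not tested.

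For 5 wk over 2 wk, with no minimum of UMIs the count of 2-fold genes became 3 in antral, 8 in theca-like and 5 in blood endothelial cells. With the 10 genes allowed in the clustering it became 1 in antral and 0 in blood endothelial cells, with no test involved. The stricter filter gave 1 in stromal-like and 1 in blood endothelial cells, and removing doublets 1 in blood endothelial cells. In the main tests between groups, the library term paired the groups of each library. Between ages no pairing was possible, with 1 library per age.

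Limits are set by depth and by 1 library per age. Ptgs1, Ptgs2, Ptgfr and Ptgds rest on few UMIs in most groups, so a low value there is not an absence, and several did not pass the filter. Cell groups were rebuilt from markers, and their borders are not those of the study.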

Other observations

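Hematopoietic cells carried RNA for other prostanoid enzymes. The list genes Hpgds, Tbxas1, Ptger4 and Slco2a1 are named here after their levels were seen. Hpgds, the hematopoietic prostaglandin D synthase, was at 73.9, 83.3, 85.5, 169 and 80.6 CPM in hematopoietic cells of the 2, 3, 4, 5 and 6 wk libraries, and at 1.22 ± 0.803 CPM in blood endothelial cells. Tbxas1, the thromboxane synthase, was at 9.85, 78.3, 58.4, 103 and 91.0 CPM, against 0.810 ± 1.29 CPM in blood endothelial cells, with the 2 wk library the lowest on 6 UMIs. Ptger4 was at 39.4, 50.5, 66.5, 64.3 and 60.7 CPM. The rete ovarii held Ptger4 at 109.8 and 48.2 CPM and Slco2a1 at 322 and 179 CPM in its 2 libraries.

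Among the cells of all libraries, 580 had a Ptgs2 UMI and 663 a Ptgs1 UMI, and 33 had both, 5.69% of the first and 4.98% of the second. Of the 18180 cells with a Ptges UMI, 9750 also had an Hpgd UMI, which is 53.6% of them and 54.0% of the 18069 cells with an Hpgd UMI. Deeper cells have more of every gene, and these shares were not corrected for depth. The 7884 unnamed cells had a Ptges level of 104 CPM and an Inha level of 2541 CPM over all libraries.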
